A study of Homo sapiens with 26 samples.

Results

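The BCL2 family controls the mitochondrial pathway of apoptosis, and the RNA of 10 of its genes was examined in KELLY neuroblastoma cells in culture and as tumours in mice. The 10 genes are the rows of the deposited count tables with the symbols BCL2, BCL2L1, BCL2L11, MCL1, BAX, BAK1, BBC3, PMAIP1, BID and BIK, out of 26485 genes in each table, and all 10 were found. The rule that lists them goes by symbol, and it was written with earlier results of these data known. KELLY is an established cell line from a human neuroblastoma, a childhood tumour of the sympathetic nervous system, and its MYCN gene is amplified. By lentivirus it had received a doxycycline-inducible vector with GFP (F1HUTG in the labels), with no insert (empty vector, EV) or with 1 of 2 hairpin RNAs, sh4 and shAMB, directed at RUNX1T1, a gene for a transcriptional co-repressor. All 3 lines were cultured for 72 h in the presence of doxycycline or of its solvent control DMSO, with 3 libraries per group and 18 in all. All culture groups thus shared the vector backbone. The sources used here do not say whether a line was a clone. A further 8 libraries came from tumours of KELLY cells, 4 labelled Control with genotype WT and control food, and 4 labelled KO with genotype RUNX1T1 KO and doxycycline food. The methods of the study describe such tumours as hairpin-carrying cells grown under the skin of young female NOD SCID gamma mice, which lack T, B and natural killer cells, so that KO is used below only as the label. The labels do not give the hairpin of the tumours. The study's text names for its KELLY xenografts the construct built on an Ambion siRNA sequence, and the labels do not tie that construct to sh4 or shAMB. Nothing says that libraries of a group came from separate cultures, so p-values in culture measure only the spread between these libraries, which may be technical.

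Count columns of the culture table were headed Neg or Pos, and these words were read as DMSO and doxycycline, on which the direction of every culture comparison rests. RUNX1T1 RNA, the target of the hairpins, was 33.3 to 35.01 CPM in the sh4 libraries with DMSO and 30.1 to 33.9 CPM with doxycycline, where CPM is a count relative to the scaled library total. It was 39.9 to 42 CPM and 41.3 to 44.1 CPM in shAMB, 39.3 to 44.05 CPM and 36.5 to 38.6 CPM in EV, and 30 to 43.1 CPM in Control and 24.3 to 35.2 CPM in KO tumours. Its log2 fold change with doxycycline was -0.11 ± 0.05 (SE, adjusted p = 0.117) in sh4 and 0.06 ± 0.05 (adjusted p = 0.378) in shAMB, and that of KO against Control tumours was -0.23 ± 0.15 (adjusted p = 0.229). In EV it was -0.16 ± 0.05 (adjusted p = 0.672), with groups that did not overlap. The effects in sh4 and EV were not told apart (difference 0.04 ± 0.08, adjusted p = 0.686). The shAMB effect was 0.21 ± 0.08 above that in EV (adjusted p = 0.0353), a call lost in most alternatives. The target RNA thus did not pass the test within a line or in tumours, although with GC content and length trends removed it was lower in sh4 (-0.24, adjusted p = 1.91e-04) and in tumours (-0.36, adjusted p = 0.012). MYCN RNA rose with doxycycline, by a log2 value of 0.68 ± 0.08 in sh4 (adjusted p = 4.62e-06) and by 1.57 ± 0.08 in shAMB (adjusted p = 1.80e-10), and was 1.46 ± 0.14 higher in KO tumours (adjusted p = 3.14e-05). In EV its change was 0.07 ± 0.08 (adjusted p = 0.701). All 8 adrenergic neuroblastoma markers examined, among them HAND2 and DBH, exceeded 1 CPM on average in every group. The mesenchymal-like markers (CD44, FN1, FOSL1, PRRX1, VIM and YAP1) summed to 121.3 to 123.7 CPM with DMSO and 173.1 to 180.8 CPM with doxycycline in sh4, to 105.1 to 115.5 CPM and 69.8 to 78.3 CPM in shAMB, and to 59.6 to 73.95 CPM in Control and 43.4 to 57.2 CPM in KO tumours, and their part in the changes of the family was not tested. Fibroblast markers (COL1A1, COL1A2, COL3A1, DCN and PDGFRB) summed to 73.9 to 99.7 CPM with DMSO and 88.4 to 130 CPM with doxycycline in sh4, to 67.3 to 81.4 CPM and 80.8 to 99.1 CPM in shAMB, to 66.98 to 81.5 CPM over both EV groups, and to 48.2 to 81.5 CPM in Control and 74.3 to 116 CPM in KO tumours, and their part was likewise not tested. Within both lists single genes went different ways, so the sums do not stand for each gene. On average in sh4, FN1 went from 76.6 to 125.7 CPM with doxycycline and VIM from 25.4 to 20.0 CPM. In KO tumours CD44 was higher (18.7 against 8.46 CPM in Control) and VIM lower (8.17 against 16.3 CPM). In shAMB PDGFRB went from 33.8 to 59.1 CPM with doxycycline and COL3A1 from 33.65 to 14.3 CPM. The 5 immune markers summed to at most 2.2 CPM in any library. Of 4 erythroid markers, HBB and HBA1 were at 0 in all groups, and the 4 endothelial markers summed to at most 2.25 CPM in any library. Library totals were 35115915 to 54736733 expected counts in culture and 47346063 to 62378060 in tumours. In bulk RNA, fewer cells of a type and less RNA per cell cannot be told apart.

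Proteins of this family decide at the outer mitochondrial membrane whether a cell under stress survives. BCL2, BCL-XL (the long product of BCL2L1) and MCL1 hold the cell alive by binding the effectors BAX and BAK1 and the BH3-only proteins. BH3-only proteins, here BIM (from BCL2L11), PUMA (BBC3), NOXA (PMAIP1), BID and BIK, are induced or activated by stress signals and release or activate the effectors, which then open pores in the membrane. In neuroblastoma the balance of BCL2 and BIM is well known in connection with drugs that mimic BH3 peptides, and MYC proteins are known to sensitise cells to apoptosis.

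MYC proteins with their partner MAX bind the E-box CACGTG, and since MYCN RNA differed between groups, the 250 bases before the RefSeq transcription starts were searched for the words CACGTG and CANNTG (each reads the same on both strands, and the second includes the first). RefSeq windows (GRCh38.p14) were at hand for 8 of the 10 genes, 13 windows in all. CACGTG was present in 6.34% and CANNTG in 61.8% of the 35116 windows of all genes. The window of BAX held 4 CACGTG words, starting 138, 93, 45 and 14 bases before the start, and 1 CAGGTG. Those of BBC3 and 2 of the 5 windows of BID held 1 CACGTG each. Neither word occurred in the windows of BCL2, BCL2L1, BCL2L11, BAK1 and PMAIP1. A match is a description of the letters and not a binding site. The windows shown are those of BCL2 and BCL2L11, whose rises in sh4 held under every alternative tried, and that of BAX, which held the most E-boxes of the 13 windows. CANNTG words are in capitals, and each window is written 5′ to 3′ on the gene's strand. They lie at chr18:63319770-63320019 (minus strand), chr2:111120664-111120913 (plus strand) and chr19:48954625-48954874 (plus strand). RefSeq starts differ from the gene bounds given below, which are those of GENCODE. By those bounds the windows of BCL2 and BCL2L11 lie inside the gene, and that of BAX reaches past its start. The sequence upstream of the outermost GENCODE start of BCL2 and BCL2L11 was thus not searched.
BCL2: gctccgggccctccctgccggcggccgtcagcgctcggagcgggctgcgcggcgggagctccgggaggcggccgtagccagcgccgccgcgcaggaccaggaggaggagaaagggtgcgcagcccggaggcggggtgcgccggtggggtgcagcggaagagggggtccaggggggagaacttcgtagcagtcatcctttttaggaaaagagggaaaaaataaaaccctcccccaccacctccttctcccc
BCL2L11: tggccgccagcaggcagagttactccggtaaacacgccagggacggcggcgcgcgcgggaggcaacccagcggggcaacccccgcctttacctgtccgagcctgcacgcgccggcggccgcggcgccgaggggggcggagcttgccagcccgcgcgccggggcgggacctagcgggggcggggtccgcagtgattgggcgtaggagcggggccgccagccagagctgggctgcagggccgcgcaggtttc
BAX: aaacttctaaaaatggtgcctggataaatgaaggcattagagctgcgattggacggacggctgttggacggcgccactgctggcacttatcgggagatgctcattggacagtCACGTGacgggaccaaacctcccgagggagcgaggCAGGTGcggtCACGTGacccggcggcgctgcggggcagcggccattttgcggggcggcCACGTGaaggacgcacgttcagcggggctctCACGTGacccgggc

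Levels were compared between genes only per kilobase of the deposited gene length. In EV cells with DMSO, MCL1 was the most abundant member at 111.2 ± 6.66 CPM per kilobase (SD, n = 3), followed by BAX at 43.8 ± 11.9, BID at 34.0 ± 0.41, PMAIP1 at 16.1 ± 0.96, BCL2L1 at 14.04 ± 1.70, BAK1 at 9.57 ± 1.51, BCL2 at 8.97 ± 0.36, BCL2L11 at 2.76 ± 0.04 and BBC3 at 0.65 ± 0.23 CPM per kilobase. BIK had 0 or 1 count per library there. The ranges of BAX and BID, of PMAIP1 and BCL2L1, and of BAK1 and BCL2 overlapped, so that these neighbours were not apart beyond their spread. MCL1 ranked 1 and BCL2L11 ranked 8 in all 8 groups. BCL2 ranked 7 with DMSO in EV and sh4 and 5 with doxycycline in both hairpin lines, where its range overlapped that of PMAIP1 below it and, in shAMB, that of BCL2L1 above it. Among tumours BCL2 ranked 7 in Control, at 3.67 ± 0.32 CPM per kilobase (n = 4), and 5 in KO, at 9.82 ± 0.51. BAX, at 22.5 ± 4.92 and 15.9 ± 4.01 CPM per kilobase, ranked below BID in both tumour groups. The deposited length of BAX is 822 bases, while its annotated exons cover 2587 bases, so its place in this order depends on that length.

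**Figure D1:**
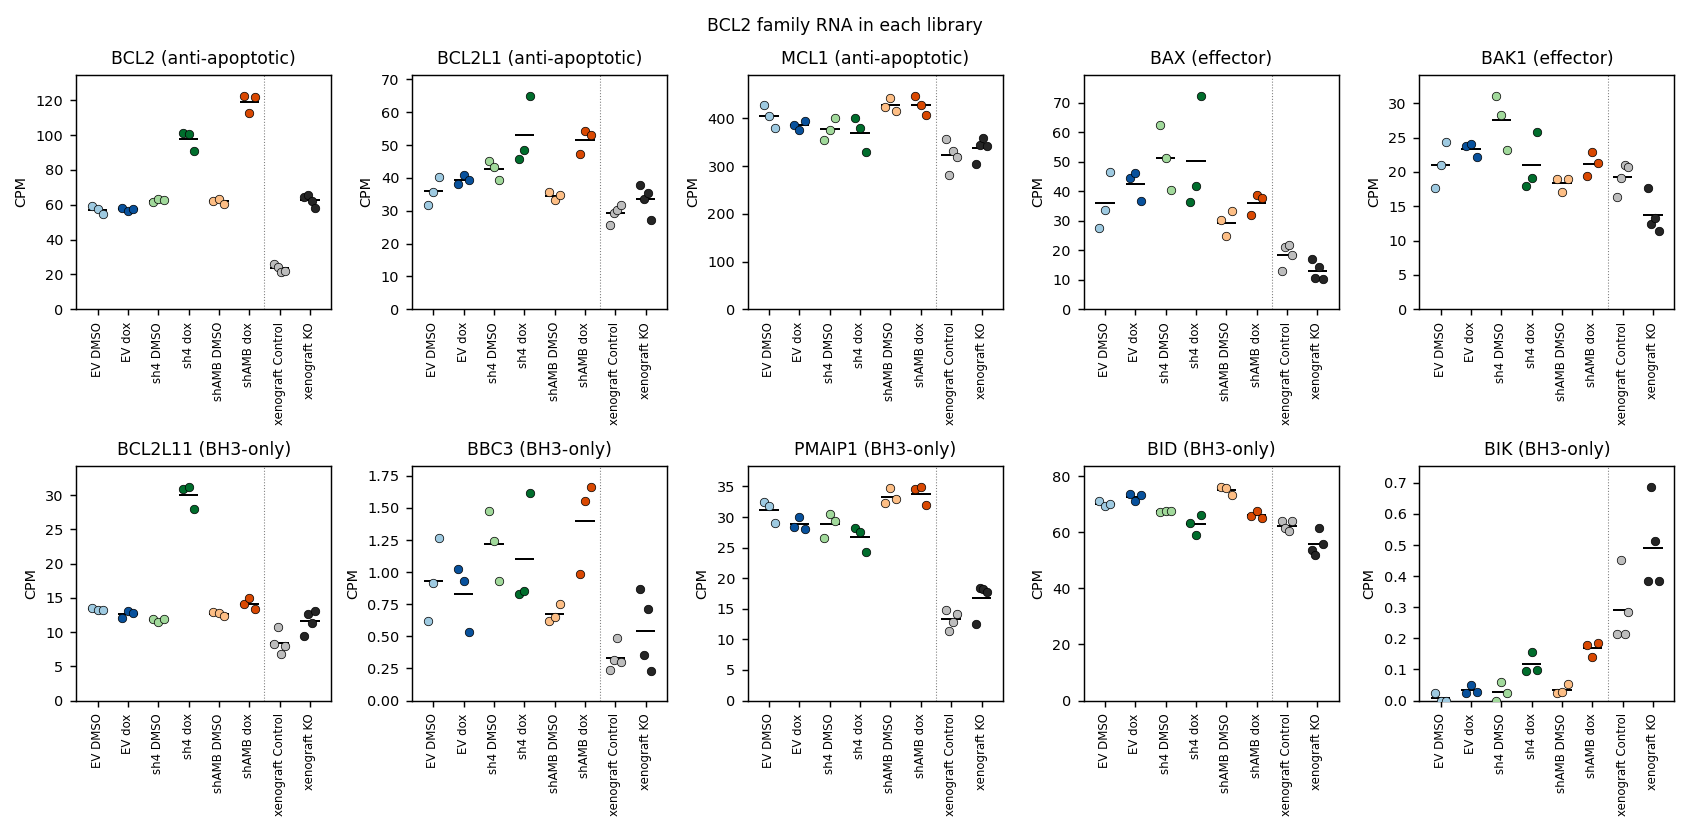
CPM (vertical axes, from 0) of the 10 genes in each of the 26 libraries by group, with points for libraries and bars for group means. The dotted line parts culture from tumours, whose counts were scaled separately. BCL2 with doxycycline lay at 90.6 to 101 CPM in sh4 and 112 to 122 CPM in shAMB, apart from all other culture libraries, and BCL2L11 at 27.9 to 31.2 CPM in sh4 with doxycycline.

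With doxycycline, BCL2 RNA rose in both hairpin lines and not detectably in EV, and it was higher in KO tumours. BCL2L11 rose 2.54-fold in sh4, against 1.12-fold in shAMB. BCL2L1 rose in both hairpin lines, but as fitted its sh4 effect was not told apart from that in EV (adjusted p = 0.409). MCL1 was called in none of these 4 comparisons as fitted. In what follows a gene is called when its adjusted p is under 0.05 over all genes tested. Of the 9 members tested in culture (BIK was under the count filter), 4 were called in sh4, 3 higher and 1 lower, where 40.9% of all genes tested were called. In shAMB 5 were called, 4 higher and 1 lower, against 66.0% of all genes. In EV 0 of 9 were called by edgeR (0 at an unadjusted p under 0.05, and 0 by DESeq2 or by limma on TPM), against 0.0939% of all genes. In tumours 3 of 10 were called, 2 higher and 1 lower, against 41.1%. With 9 or 10 members these counts lie near the share of all genes called, so the number of members called is no result about the family. The median log2 fold change of the members was -0.03 in sh4, 0.21 in shAMB and 0.26 in tumours, beside medians over all genes of -0.00, 0.10 and 0.02.

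**Figure D2:**
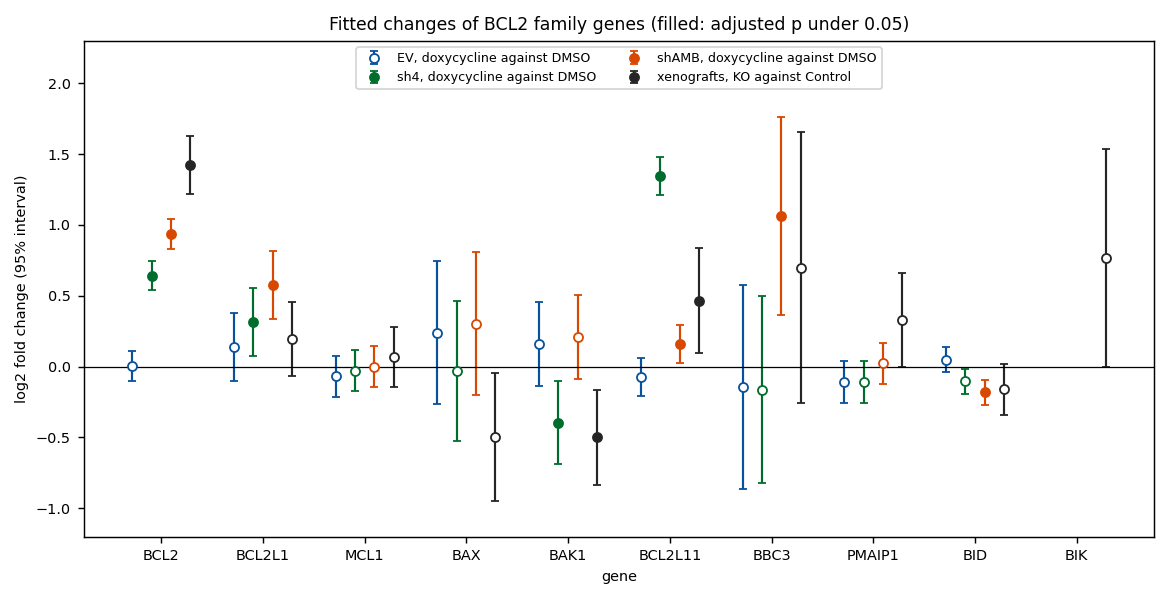
Log2 fold change (points) with its 95% interval (bars) for each gene in 4 comparisons, filled where the adjusted p was under 0.05. BCL2 was 0.64 in sh4, 0.94 in shAMB, 1.42 in KO tumours and 0.00 in EV, and BCL2L11 was 1.35 in sh4 and 0.16 in shAMB. BIK was tested in tumours only.

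BCL2 (GRCh38, chromosome 18, 63123346 to 63320128, minus strand), the founding survival gene of the family, measured 54.7 to 59.3 CPM in the 6 EV libraries. With DMSO it was 61.5, 63.2 and 62.5 CPM in sh4 and 62.2, 63.6 and 60.6 CPM in shAMB. With doxycycline it was 101, 101 and 90.6 CPM in sh4 and 122, 112 and 122 CPM in shAMB. All 3 doxycycline libraries lay above all DMSO libraries in both hairpin lines. The fold change was 1.56 in sh4 (95% interval 1.45 to 1.68, log2 0.64 ± 0.05 SE, adjusted p = 4.55e-08) and 1.91 in shAMB (1.78 to 2.06, log2 0.94 ± 0.05, adjusted p = 2.44e-10). In EV it was 1.00 (0.93 to 1.08, adjusted p = 0.971). The Control tumours had 25.8, 24.5, 21.6 and 21.9 CPM and the KO tumours 64.5, 65.6, 62.4 and 58.3 CPM, with no overlap. KO tumours were 2.68-fold higher (2.32 to 3.08, log2 1.42 ± 0.09, adjusted p = 4.65e-06). The effect exceeded that in EV by a log2 value of 0.64 ± 0.07 in sh4 (adjusted p = 5.49e-06) and by 0.93 ± 0.07 in shAMB (adjusted p = 4.04e-08), and the shAMB effect was the larger by 0.29 ± 0.07 (adjusted p = 0.00192). These calls held under all 15 alternatives in each hairpin line, all 16 in tumours and all 21 for each difference of effects. With GC content and length trends removed the values were 0.50 in sh4, 0.98 in shAMB and 1.34 in tumours.

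BCL2L1 (chromosome 20, 31664452 to 31723989, minus strand), the gene of BCL-XL, measured 31.6 to 40.8 CPM in EV. With DMSO it was 45.1, 43.4 and 39.3 CPM in sh4 and 35.8, 33.4 and 34.7 CPM in shAMB. With doxycycline it was 45.7, 48.4 and 65.0 CPM in sh4 and 47.2, 54.3 and 53.1 CPM in shAMB. Groups did not overlap in either line, though doxycycline library 1 and DMSO library 1 of sh4 were close. The rise was 1.49-fold in shAMB (1.26 to 1.76, log2 0.57 ± 0.11, adjusted p = 3.58e-04), a call that held under all 15 alternatives, although with GC content and length trends removed the log2 value was 0.19 (adjusted p = 8.11e-04). In sh4 it was 1.24-fold (1.06 to 1.47, log2 0.31 ± 0.11, adjusted p = 0.0343), which fell to 0.14 (adjusted p = 0.174) without doxycycline library 3 and also missed the threshold without DMSO library 2 (0.33, adjusted p = 0.0684) or 3 (0.26, adjusted p = 0.112). With GC content and length trends removed the sh4 value was instead larger (0.43, adjusted p = 1.35e-07). Its excess over the EV effect was then 0.45 (adjusted p = 1.32e-05). Control tumours had 25.8 to 31.8 CPM and KO tumours 27.2 to 37.7 CPM, a fold of 1.14 (0.96 to 1.37, adjusted p = 0.215). The tumour value passed the threshold only with the trends removed (adjusted p = 0.0487). BCL2L1 shares 41.3% of its exon sequence with ABALON, a non-coding gene on the other strand. Strand use in counting is not given in the sources used here, so reads of the pair may not have been told apart. Both genes had fractional expected counts, such as 1385.67 for BCL2L1 and 99.33 for ABALON in library 1 of EV with DMSO. Some reads were thus divided between genes, and the level of BCL2L1 depends on that division. ABALON itself was at 2.87 ± 0.44 CPM (SD) with DMSO and 7.28 ± 0.70 CPM with doxycycline in sh4, and at 2.43 ± 0.10 and 6.68 ± 0.36 CPM in shAMB. In EV it was at 2.61 ± 0.34 and 3.21 ± 0.38 CPM, and in tumours at 4.62 ± 0.87 CPM in Control and 7.38 ± 0.39 CPM in KO. These values hold only the reads assigned to ABALON. How many shared reads were counted for BCL2L1 was not tested.

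MCL1 (chromosome 1, 150560895 to 150579738, minus strand), a short-lived survival protein, measured 328.6 to 447.2 CPM over the 18 culture libraries and 281.5 to 358.5 CPM in tumours. Groups overlapped in every comparison of doxycycline with DMSO. The fold change was 0.98 in sh4 (0.89 to 1.08, adjusted p = 0.753), 1.00 in shAMB (0.90 to 1.104, adjusted p = 0.992) and 1.05 in tumours (0.90 to 1.21, adjusted p = 0.619). These intervals cover only the spread between libraries as fitted, and not a trend with GC content or length. Removal of GC content and length trends gave -0.11 (adjusted p = 0.0402) in sh4 and 0.09 (adjusted p = 0.0725) in shAMB, and differences of 0.14 (adjusted p = 0.0444) for shAMB minus EV and 0.19 (adjusted p = 0.00854) for shAMB minus sh4.

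As a share of the summed CPM per kilobase of BCL2, BCL2L1 and MCL1, BCL2 made up 6.68% ± 0.04 (SD, n = 3) in EV with DMSO and 6.90% ± 0.12 with doxycycline. The share was 7.52% ± 0.26 with DMSO and 11.1% ± 0.23 with doxycycline in sh4, and 6.91% ± 0.04 and 11.9% ± 0.67 in shAMB. In tumours it was 3.56% ± 0.43 in Control and 8.51% ± 0.62 in KO (n = 4). MCL1 took 73.7% ± 3.71 of the sum in sh4 with doxycycline and 85.3% ± 1.66 in Control tumours, its lowest and highest group means. BCL2L1 took 9.63% ± 0.55 in shAMB with DMSO and 15.2% ± 3.82 in sh4 with doxycycline. Protein was not measured in these libraries.

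**Figure D3:**
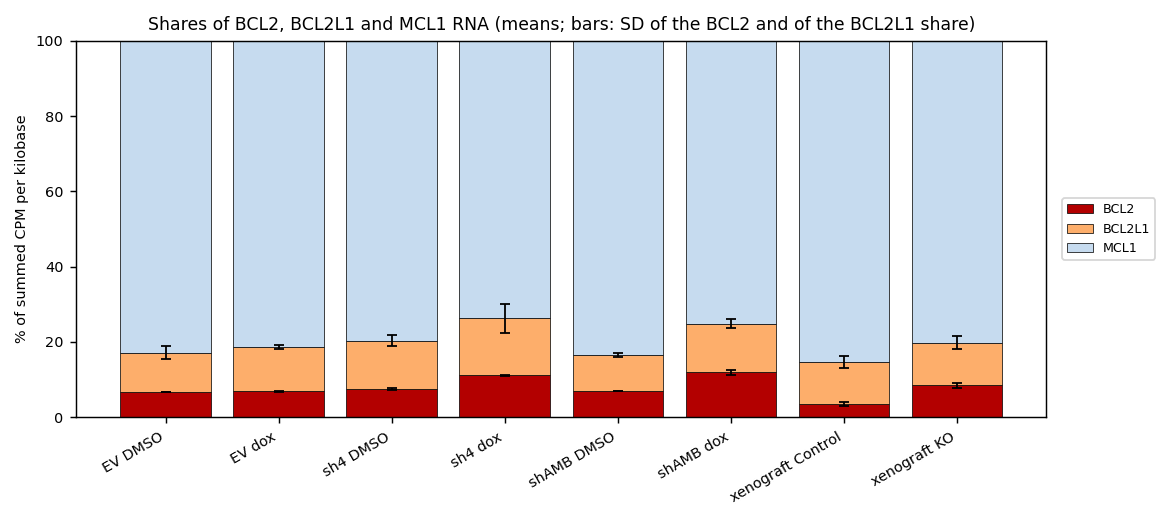
Mean share (vertical axis, percent) of BCL2, BCL2L1 and MCL1 in their summed CPM per kilobase in the 8 groups, with SD over 3 culture or 4 tumour libraries for the BCL2 and the BCL2L1 share, each drawn at the top of its segment. The BCL2 share was 6.68% in EV with DMSO, 11.1% in sh4 and 11.9% in shAMB with doxycycline, and 3.56% and 8.51% in Control and KO tumours.

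The effectors and several other members moved with the GC content of libraries, so this was measured. For each library a GC index was computed, the mean log2 deviation of the 10% of tested genes richest in GC (1357 genes in culture, 1434 in tumours, members left out). It ranged from -0.74 to 0.77 over the culture libraries. In shAMB it was -0.74 to -0.39 with DMSO and 0.33 to 0.77 with doxycycline, without overlap, and in sh4 it was -0.08 to 0.61 and -0.44 to 0.57. In tumours the index was -0.66 to 0.13 in Control and -0.50 to 0.72 in KO. Within groups, deviations of BAX from its group mean went with those of the index (r = 0.98 over the 18 culture libraries, which share the genes and scaling behind the index), as did BAK1 (r = 0.96), BCL2L1 (r = 0.94) and BBC3 (r = 0.89). MCL1 (r = -0.99), PMAIP1 (r = -0.81) and BCL2 (r = -0.75) went the other way. Over the 8 tumour libraries r was 0.91 for BAX, 0.92 for BAK1, 0.93 for BCL2L1 and 0.88 for BBC3. It was -0.59 for MCL1, -0.71 for PMAIP1 and -0.04 for BCL2. The transcripts of BAX hold 60.5% GC, of BAK1 58.7% and of BBC3 64.4%, beside a median of 49.6% over genes tested and 44.3% for BCL2. The part of GC content in the changes between groups was not tested beyond refitting with these trends removed. That refit also takes out any true difference between groups that runs with GC content.

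**Figure D4:**
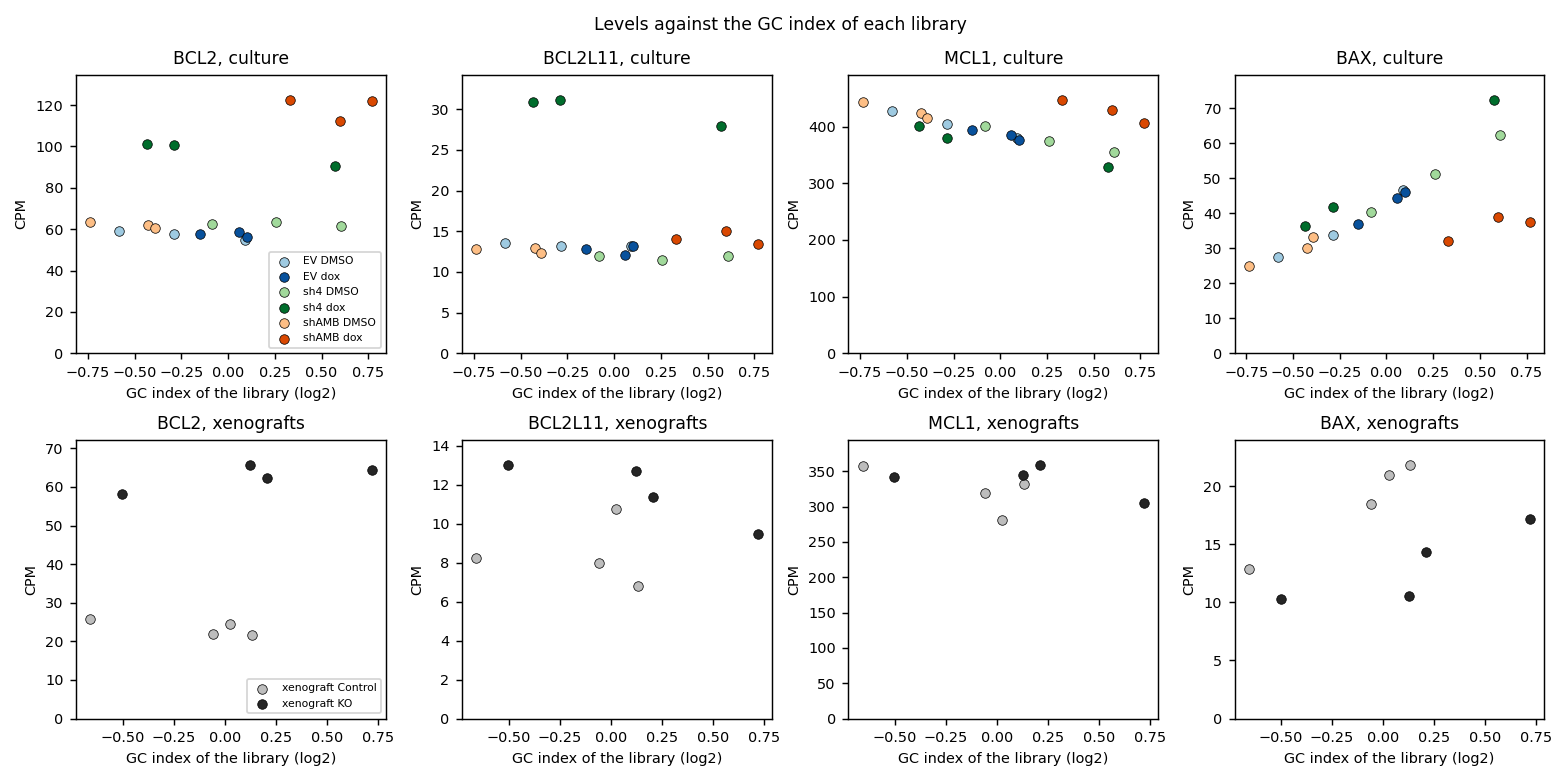
CPM (vertical axes, from 0) of 4 genes against the GC index of each library (horizontal axes, log2), with points for libraries coloured by group. BAX rose and MCL1 fell with the index within groups (r = 0.98 and -0.99 in culture), while BCL2 and BCL2L11 in sh4 with doxycycline lay above DMSO libraries of a like index.

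BAX (chromosome 19, 48954815 to 48961798, plus strand), the effector with the 4 CACGTG words shown above, measured 62.4, 51.2 and 40.3 CPM in sh4 with DMSO and 36.4, 41.9 and 72.4 CPM with doxycycline. In shAMB it was 30.1, 24.9 and 33.2 CPM with DMSO and 32.1, 38.9 and 37.6 CPM with doxycycline, and in EV 27.6 to 46.7 CPM. The groups overlapped in all 3 lines. The fold change was 0.98 in sh4 (0.69 to 1.38, adjusted p = 0.923) and 1.23 in shAMB (0.87 to 1.75, adjusted p = 0.276). With GC content and length trends removed, BAX rose in sh4 by a log2 value of 0.37 (adjusted p = 4.83e-06) and fell by 0.22 in shAMB (adjusted p = 8.53e-04), so that no direction can be given. Control tumours had 12.9, 21.0, 21.8 and 18.5 CPM and KO tumours 17.2, 10.6, 14.4 and 10.3 CPM, a fold of 0.71 (0.52 to 0.97, adjusted p = 0.076). The tumour value passed the threshold without Control library 1 (-0.68, adjusted p = 0.014), without KO library 1 (-0.66, adjusted p = 0.0188), with DESeq2 (-0.50, adjusted p = 0.0399) and with the trends removed (-0.36, adjusted p = 0.00822).

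BAK1 (chromosome 6, 33572547 to 33580293, minus strand), the other effector, fell in sh4 from 31.1, 28.3 and 23.2 CPM with DMSO to 18, 19.1 and 25.8 CPM with doxycycline. The groups overlapped through DMSO library 3 and doxycycline library 3. The fold was 0.76 (0.62 to 0.93, log2 -0.40 ± 0.14, adjusted p = 0.0313), and it missed the threshold without any 1 of DMSO libraries 1 and 2 and doxycycline libraries 1 and 2 (-0.38 to -0.30, adjusted p = 0.0831 to 0.135). With GC content and length trends removed it was -0.19 (adjusted p = 0.00169). In shAMB BAK1 was 18.97, 17.1 and 18.9 CPM with DMSO and 19.4, 22.9 and 21.3 CPM with doxycycline, without overlap, a fold of 1.16 (0.94 to 1.42, adjusted p = 0.192), which turned to -0.29 on the log2 scale (adjusted p = 3.03e-05) with the trends removed. In EV it was 17.7 to 24.3 CPM. KO tumours were lower, with 17.6, 12.4, 13.2 and 11.5 CPM against 16.4, 19.1, 21.1 and 20.7 CPM in Control, where KO library 1 lay among the Control values. The fold was 0.71 (0.56 to 0.89, log2 -0.50 ± 0.15, adjusted p = 0.0225). Leaving out Control library 3 or 4 or KO library 2 or 3 lost this call (adjusted p = 0.0541 to 0.0718, log2 -0.50 to -0.45), and removing the trends kept it (-0.54, adjusted p = 2.90e-04).

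**Figure D5:**
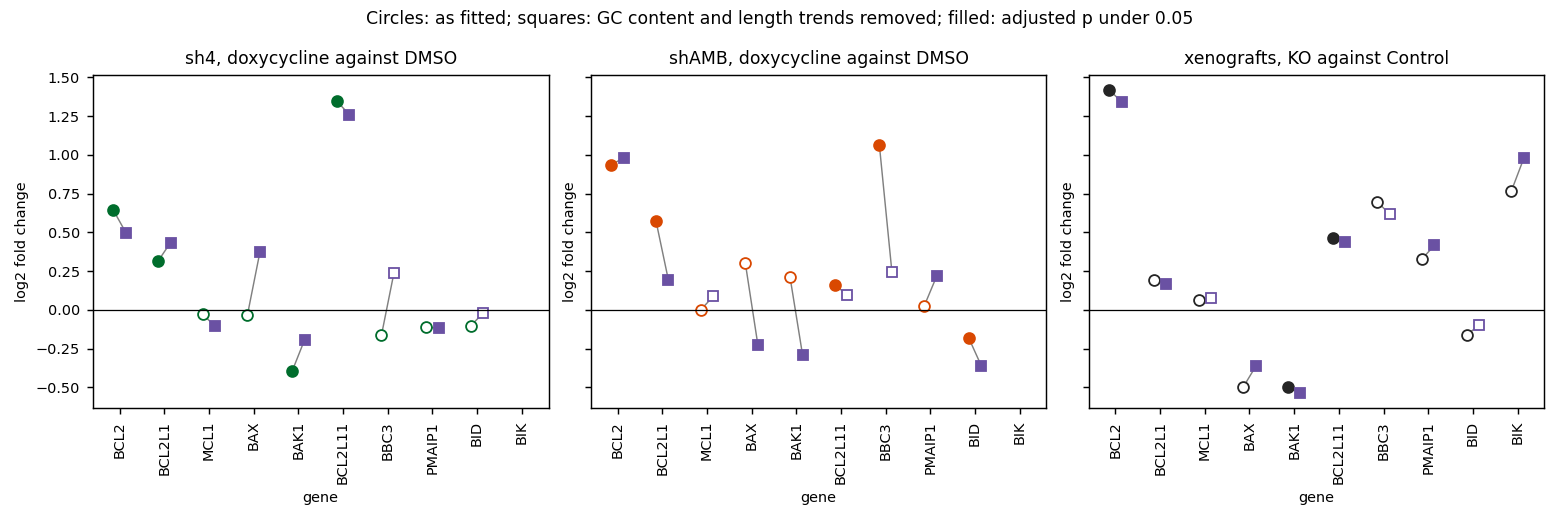
Log2 fold change (vertical axis) of each gene in 3 comparisons, as fitted (circles) and with GC content and length trends removed (squares), filled where the adjusted p was under 0.05. BCL2 moved from 0.64 to 0.50 in sh4, from 0.94 to 0.98 in shAMB and from 1.42 to 1.34 in tumours, whereas BAX changed sign in both hairpin lines.

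BCL2L11 (chromosome 2, 111119378 to 111168444, plus strand) encodes BIM, which binds all survival members and can activate BAX. It measured 12.1 to 13.5 CPM in EV. In sh4 it was 11.97, 11.5 and 11.9 CPM with DMSO and 30.9, 31.2 and 27.9 CPM with doxycycline. In shAMB it was 12.9, 12.8 and 12.3 CPM with DMSO and 14.04, 14.99 and 13.4 CPM with doxycycline. The sh4 libraries with doxycycline lay well above every other culture library, and the groups did not overlap in shAMB or, in the downward direction, in EV. The rise in sh4 was 2.54-fold (2.32 to 2.79, log2 1.35 ± 0.06, adjusted p = 1.79e-10) and held under all 15 alternatives. That in shAMB was 1.12-fold (1.02 to 1.23, log2 0.16 ± 0.06, adjusted p = 0.0366) and was lost in 13 of 15 alternatives, among them the omission of any library but doxycycline library 3 (0.11 to 0.17, adjusted p = 0.059 to 0.165). The sh4 effect exceeded that in EV by 1.42 ± 0.09 (adjusted p = 1.94e-08), and the shAMB effect was 1.19 below that of sh4 (log2 -1.19 ± 0.09, adjusted p = 2.79e-08), both in all 21 alternatives. Control tumours had 8.24, 10.7, 6.79 and 8.01 CPM and KO tumours 9.47, 12.7, 11.4 and 13.01 CPM. The fold was 1.38 (1.07 to 1.79, log2 0.46 ± 0.17, adjusted p = 0.0471), with groups that overlapped between KO library 1 and Control library 2. It was lost in 9 of 16 alternatives, including the omission of Control library 1, 3 or 4 or of KO library 2, 3 or 4 (0.37 to 0.46, adjusted p = 0.0967 to 0.135). BCL2L11 has 18 RefSeq transcripts, which the gene counts sum, and 10.8% of its exon sequence overlaps MIR4435-2HG on the other strand.

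BBC3 (chromosome 19, 47220822 to 47232766, minus strand), the PUMA gene and a p53 target, had few counts, 19 to 89 per culture library and 11 to 50 per tumour library. Libraries of shAMB held 25, 25 and 28 counts under DMSO and 44, 89 and 72 under doxycycline, which is 0.62 to 0.75 CPM and 0.99 to 1.66 CPM. The fold was 2.09 (1.29 to 3.39, log2 1.06 ± 0.33, adjusted p = 0.0101), and with GC content and length trends removed the value was 0.25 (adjusted p = 0.218). In sh4 it measured 1.48, 1.24 and 0.93 CPM with DMSO and 0.83, 0.86 and 1.62 CPM with doxycycline, with overlap, a fold of 0.89 (0.57 to 1.41, adjusted p = 0.702). Tumours had 0.23 to 0.48 CPM in Control and 0.23 to 0.87 CPM in KO, a fold of 1.62 (0.84 to 3.15, adjusted p = 0.225).

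PMAIP1 (chromosome 18, 59899996 to 59904305, plus strand) encodes NOXA, which binds chiefly MCL1. Its range was 24.3 to 30.5 CPM in the 6 sh4 libraries, 31.99 to 34.9 CPM in shAMB and 28.1 to 32.5 CPM in EV. Doxycycline and DMSO groups overlapped in all 3 lines, with folds of 0.93 in sh4 (0.84 to 1.03, adjusted p = 0.221) and 1.02 in shAMB (0.92 to 1.13, adjusted p = 0.788). With trends removed the values were -0.12 in sh4 (adjusted p = 0.0221) and 0.22 in shAMB (adjusted p = 1.57e-04). Control tumours had 14.8, 11.4, 12.9 and 14.2 CPM and KO tumours 12.5, 18.3, 18.3 and 17.8 CPM. Of the KO tumours, library 1 lay within the Control range and the other 3 lay above it. The fold was 1.26 (1.00 to 1.58, log2 0.33 ± 0.15, adjusted p = 0.104), and without KO library 1 the log2 value was 0.44 (adjusted p = 0.0134). The tumour value also passed the threshold with the trends removed (adjusted p = 0.00982).

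BID (chromosome 22, 17734138 to 17774770, minus strand), which links death receptors to mitochondria once cleaved by caspase-8, fell in shAMB from 76.1, 76.0 and 73.2 CPM with DMSO to 65.9, 67.6 and 65.1 CPM with doxycycline, without overlap. The fold was 0.88 (0.83 to 0.94, log2 -0.18 ± 0.04, adjusted p = 0.00123) and the call held under all 15 alternatives, with -0.36 (adjusted p = 1.09e-04) once trends with GC content and length were taken out. In sh4 it was 67.2, 67.8 and 67.6 CPM with DMSO and 63.4, 58.96 and 66.3 CPM with doxycycline, without overlap, a fold of 0.93 (0.88 to 0.99, adjusted p = 0.0589). That value passed the threshold in 6 alternatives, among them DESeq2 (adjusted p = 0.0307) and the omission of doxycycline library 3 (-0.14, adjusted p = 0.00924), whereas with the length trend removed it was -0.01 (adjusted p = 0.867) and with GC content and length trends removed -0.02 (adjusted p = 0.83). EV libraries had 69.4 to 73.5 CPM. Tumours had 60.3 to 63.9 CPM in Control and 53.7, 52.0, 61.5 and 55.9 CPM in KO, a fold of 0.89 (0.79 to 1.012, adjusted p = 0.137).

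BIK (chromosome 22, 43110750 to 43129712, plus strand), a BH3-only gene of the endoplasmic reticulum, was at the edge of detection in culture. Summed over 3 libraries it had 4 counts with DMSO and 16 with doxycycline in sh4, 4 and 24 in shAMB, and 1 and 4 in EV. Scaled to library totals the ratio was 4.28 in sh4 (1.38 to 17.6), 4.81 in shAMB (1.65 to 19.1) and 4.01 in EV (0.40 to 197), with intervals that cover counting error only. The EV interval is too wide to give a direction there. Without a count filter edgeR gave an adjusted p of 0.0367 in sh4, 0.00969 in shAMB and 0.761 in EV. Whether either effect differed from that in EV could not be told at these counts. Tumours had 10, 20, 12 and 17 counts in Control and 22, 39, 33 and 20 in KO, or 0.21 to 0.45 CPM and 0.38 to 0.69 CPM. The fold there was 1.70 (1.00 to 2.90, adjusted p = 0.104), and without Control library 2 the log2 value was 1.03 (adjusted p = 0.0404).

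Set against the EV effect, 3 of 9 members differed in sh4 (BCL2 and BCL2L11 higher, BAK1 lower at -0.55 ± 0.20, adjusted p = 0.0418), beside 32.6% of all genes. In shAMB 5 of 9 did, beside 45.5% of all genes. These were BCL2 (0.93), BCL2L1 (0.44, adjusted p = 0.036), BCL2L11 (0.23, adjusted p = 0.0465) and BBC3 (1.21, adjusted p = 0.0485) in the upward and BID (-0.23, adjusted p = 0.00461) in the downward direction. Both sets share the EV libraries as controls. Leaving out single libraries lost the call of BAK1 in sh4 in 9 of 12 cases, of BCL2L1 in 8, of BCL2L11 in 10 and of BBC3 in 9 in shAMB. With trends removed BCL2L1 was 0.20 (adjusted p = 0.00909) and BBC3 0.67 (adjusted p = 0.031) in shAMB minus EV. In sh4 minus EV, BAK1 was then -0.16 (adjusted p = 0.0621) and no longer called. Calls were gained there by BCL2L1 (0.45, adjusted p = 1.32e-05), BAX (0.38, adjusted p = 2.75e-04) and BBC3 (0.66, adjusted p = 0.0356). The 2 hairpin effects differed for 4 of 9 members, beside 60.9% of all genes. BCL2 (0.29), BAK1 (0.61, adjusted p = 0.0145) and BBC3 (1.23, adjusted p = 0.0287) were higher and BCL2L11 lower in shAMB. With trends removed the BAK1 value became -0.10 (adjusted p = 0.205) and the BBC3 value 0.01 (adjusted p = 0.983), whereas those of BCL2 (0.48) and BCL2L11 (-1.16) remained called.

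The lines were also compared before doxycycline. With DMSO, 0 of 9 members differed between sh4 and EV by edgeR (5 at an unadjusted p under 0.05, and 0 by DESeq2 or limma on TPM), beside 1.12% of all genes called. Between shAMB and EV it was also 0 of 9 (2 at an unadjusted p under 0.05, and 0 by the other tools), beside 1.52%. The 5 in sh4 were BAK1 (0.39), BAX (0.51), BCL2L1 (0.25), BCL2 (0.13) and BCL2L11 (-0.18), with adjusted p of 0.155 to 0.174. The BAK1 difference was about as large as its change with doxycycline in sh4 and of the opposite sign. BCL2 differed from EV by 0.13 in sh4 and 0.12 in shAMB on the log2 scale. With GC content and length trends removed the sh4 value for BCL2 was 0.23 (adjusted p = 4.50e-04), the 1 member then called, beside its doxycycline effect of 0.50 in the same fit. RUNX1T1 itself was lower in sh4 than in EV with DMSO (-0.29 ± 0.05, adjusted p = 0.0144).

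Other genes of the pathway were read from lists, and up to 4 genes of each were named by a fixed rule. In EV edgeR called 0 of the 63 list genes tested (7 had an unadjusted p under 0.05). The counts below are to be read against all genes tested, of which 22.9% were called higher and 18% lower in sh4, 37.6% and 28.4% in shAMB, and 21.2% and 19.9% in tumours. Of 13 further BCL2 family genes, 10 were tested in culture and 11 in tumours. In sh4 2 rose and 1 fell, in shAMB 2 rose and 4 fell, and in tumours 3 were higher and 3 lower, with medians of 0.06, 0.15 and -0.26 beside the all-gene medians of -0.00, 0.10 and 0.02. Called were thus 3 of 10, 6 of 10 and 6 of 11, beside 40.9%, 66.0% and 41.1% of all genes. BCL2L13, a mitochondrial receptor of mitophagy, fell from 77.1 to 57.4 CPM in sh4 (log2 -0.43 ± 0.04, adjusted p = 2.93e-07), from 83.2 to 49.2 CPM in shAMB (-0.76 ± 0.04, adjusted p = 1.78e-10) and was 48.2 against 83.5 CPM in KO tumours (-0.79 ± 0.10, adjusted p = 1.79e-04). BCL2L12 fell in shAMB (-0.57, adjusted p = 0.0389) and was lower in KO tumours (-1.82, adjusted p = 8.91e-05), with 25.9% of its exon sequence shared with IRF3 on the other strand.

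Among 15 genes of the apoptosome, caspases and mitochondrial factors, 5 rose and 3 fell in sh4, 4 rose and 8 fell in shAMB, and 1 was higher and 5 lower in KO tumours. The list medians were -0.02, -0.15 and -0.13, and 8, 12 and 6 of 15 were called, beside 40.9%, 66.0% and 41.1% of all genes. VDAC1, a channel of the outer mitochondrial membrane, rose in sh4 (0.32 ± 0.06, adjusted p = 3.33e-04) but fell in shAMB from 461.9 to 213 CPM (-1.12 ± 0.06, adjusted p = 2.28e-10) and was lower in KO tumours (-0.96 ± 0.11, adjusted p = 7.71e-05).

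Of 7 inhibitors of apoptosis, 1 rose and 1 fell in sh4 and 3 rose and 1 fell in shAMB of 6 tested, and 2 of 7 were higher in KO tumours, beside 40.9%, 66.0% and 41.1% of all genes called. The list medians were 0.04, 0.16 and 0.20. BIRC3 rose in shAMB (0.93 ± 0.18, adjusted p = 3.68e-04) at only 0.76 and 1.46 CPM, and was higher in KO tumours (1.43 ± 0.26, adjusted p = 0.0014). BIRC6, a giant ubiquitin ligase, rose in shAMB (0.48 ± 0.10, adjusted p = 4.99e-04) and was higher in KO tumours (0.32 ± 0.11, adjusted p = 0.0459). In the death receptor list of 14 genes, 9 tested in culture and 10 in tumours, 2 rose and 1 fell in sh4, 4 rose and 2 fell in shAMB, and 3 were higher and 1 lower in KO tumours. These are 3 of 9, 6 of 9 and 4 of 10, close to the shares of all genes called, with medians of 0.14, 0.37 and 0.13. FAS rose in sh4 (0.51 ± 0.13, adjusted p = 0.00555) and shAMB (0.37 ± 0.13, adjusted p = 0.0216) and was higher in KO tumours (1.05 ± 0.23, adjusted p = 0.00445), at 1.90 to 3.93 CPM on average in these groups. TNFRSF10B, a TRAIL receptor, rose in sh4 (0.60 ± 0.03, adjusted p = 2.16e-09), fell in shAMB (-0.29 ± 0.03, adjusted p = 2.53e-06) and was lower in KO tumours (-0.57 ± 0.10, adjusted p = 8.96e-04).

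Among 23 regulators of BCL2 family genes and proteins, 6 rose and 6 fell in sh4, 12 rose and 6 fell in shAMB, and 9 were higher and 5 lower in KO tumours. These are 12, 18 and 14 of 23, beside 40.9%, 66.0% and 41.1% of all genes, with medians of -0.01, 0.14 and 0.02. MAPK8, the JNK1 kinase that phosphorylates BCL2 and BIM, rose from 87.8 to 160.3 CPM in sh4 (0.87 ± 0.07, adjusted p = 6.97e-08) and from 107 to 176 CPM in shAMB (0.72 ± 0.07, adjusted p = 2.12e-07), and was 164 against 81.3 CPM in KO tumours (1.02 ± 0.12, adjusted p = 9.83e-05). FOXO1, of a factor family that activates BCL2L11, rose in sh4 (0.42 ± 0.10, adjusted p = 0.0022) and shAMB (0.42 ± 0.09, adjusted p = 0.00108) and was higher in KO tumours (0.90 ± 0.22, adjusted p = 0.00737). Its mean in sh4 was 4.81 CPM with DMSO and 6.44 CPM with doxycycline, beside 6.48 and 5.09 CPM in EV. The sh4 level with doxycycline was thus about that of EV with DMSO. PIM2, a kinase that phosphorylates BAD, fell from 11.4 to 6.16 CPM in sh4 (-0.88 ± 0.07, adjusted p = 7.16e-08) and from 10.7 to 4.06 CPM in shAMB (-1.40 ± 0.07, adjusted p = 2.01e-10), and was lower in KO tumours (-1.35 ± 0.17, adjusted p = 1.71e-04).

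The genes most like a member over the 18 culture libraries were found for the 4 members with the widest range of group means, among the 12708 genes that averaged 1 CPM or more. For BCL2L11 they were EFCAB14 (Pearson r of log2 CPM 0.99) and PRTG (0.99), of which the first had r = 0.85 and the second r = -0.15 over the 8 tumour libraries. BCL2L11 was high only in the sh4 libraries with doxycycline, on which these r in culture largely rest. By rank (Spearman) the values in culture were 0.75 for EFCAB14 and 0.85 for PRTG, and 0.86 to 0.98 for the pairs named next. For BCL2 they were UBE3C (0.99, and 0.96 in tumours) and RAMP2-AS1 (0.99, and 0.98). BAX was most like SNX8 (0.99, and 0.96) and SH3BP5L (0.98, and 0.85), and BBC3 most like CYBA (0.95, and 0.83) and PLA2G15 (0.94, and 0.68). For BCL2 111 genes and for BCL2L11 55 genes reached an r over 0.95. These points share libraries, scaling and groups, and the values describe the likeness only.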

How the data were processed

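RNA of 18 culture and 8 xenograft libraries was sequenced by the authors. The labels call it polyA RNA while the kit they name is for stranded total RNA. For each table the authors deposited expected counts per gene, made with RSEM after STAR and SAMtools on hg38 per the submitters' processing notes, and TPM values, which the authors scaled for gene length and library size, beside them. Strand use in counting and the handling of mouse reads are not given in the sources used here.

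Expected counts were rounded and fitted with edgeR 4.0.16 (R 4.3.3): filterByExpr, TMM factors, quasi-likelihood F test and Benjamini-Hochberg adjustment of p over the full set of tested genes, 14905 in culture (all 18 libraries in 1 fit) and 15960 in xenografts. Every adjusted p in the text comes from this test unless DESeq2 1.42.0 or limma 3.58.1 is named. Limma was run on log2(TPM + 0.5). CPM used library totals times TMM factors, and intervals are 95%. The depth was 35115915 to 62378060 counts per library, and intervals on counts cover counting error only. Tested on simulated data, the fit recovered 56% of 1.5-fold and 82% of 2-fold changes in the sh4 comparison over 14905 genes, and 46% and 70% in xenografts over 15960 genes. No pair of replicate libraries was identical.

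Members and lists were chosen with earlier results of these data known. From each further list up to 4 genes were named: those called in the same direction in sh4, shAMB and xenografts, by the smallest absolute log2 fold change, filled up to 2 with genes called alike in shAMB and xenografts. For the 4 members with the widest range of culture group means, the 2 genes of highest correlation were named. One gene that the rule names is not reported here. Genes were placed with GENCODE v44 (GRCh38), and GC content was taken from it. Alternatives were RLE factors, other count filters, DESeq2, TPM with limma, removal of length or GC trends, only the groups compared, a replicate block, a 1.5-fold minimum and leaving out each library. The replicate numbers did not pair the libraries.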

Additional observations from a re-analysis of the deposited data

Results flagged for a closer look

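In KO xenografts, PMAIP1 of library 1 lay at 12.5 CPM, apart from the other 3 KO libraries by 0.903 of the group's range, above Dixon's limit for 4 samples. Every member was screened in both tumour groups, and no other value was flagged. Chance flags about 1 in 20 such groups, so a single flag is near what chance gives over this screen. KO library 1 also had the highest GC index of the tumours (0.72), and PMAIP1 went against the index within tumour groups (r = -0.71). The part of GC content in this value was not tested.

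The following effects differed between lines by a test of the difference itself (edgeR, adjusted p under 0.05), in log2 units. Between sh4 and EV these were BCL2 (0.6384), BCL2L11 (1.419) and BAK1 (-0.5522). Between shAMB and EV they were BCL2 (0.9325), BCL2L1 (0.4351), BCL2L11 (0.2313), BBC3 (1.206) and BID (-0.2299). Between shAMB and sh4 they were BCL2 (0.2941), BCL2L11 (-1.187), BAK1 (0.6079) and BBC3 (1.225). The first 2 sets share the EV libraries, and the differences of BAK1, BCL2L1, BCL2L11 in shAMB and BBC3 were lost in alternatives given with each gene.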

How the results depend on the processing

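Over 82 member results and 1400 recomputed values, 1259 stayed on the same side of the threshold, of which 81 values that were never called changed sign, 98 lost the call, 33 gained one and 10 reversed. With GC content and length trends removed, BAX reversed in sh4 (0.3732), in shAMB (-0.2247), in sh4 minus EV (0.3838), in shAMB minus EV (-0.2141) and in shAMB minus sh4 (-0.5979), BAK1 in shAMB (-0.2892), shAMB minus EV (-0.2524) and shAMB minus sh4 (-0.09646), BBC3 in sh4 minus EV (0.6648) and BCL2L1 in shAMB minus sh4 (-0.2439). Among other genes BIRC6 in sh4 (-0.08413) and MAPK8 in shAMB minus sh4 (0.1204) reversed. The same setting moved the number of members called in sh4 from 4 to 7, in sh4 minus EV from 3 to 5, in shAMB minus EV from 5 to 9, in shAMB minus sh4 from 4 to 7, in sh4 against EV with DMSO from 0 to 1 and in xenografts from 3 to 7. With a 1.5-fold minimum, 2 were called in sh4, 2 in shAMB, 2 in shAMB minus EV and 1 in xenografts. With only the groups compared, 2 were called in sh4. In shAMB minus EV, RLE factors, DESeq2 and TPM with limma each gave 3 and no count filter gave 2. Leaving out single libraries gave 2 to 4 in sh4, 2 to 4 in shAMB minus EV and 1 to 5 in xenografts. The BCL2 share in EV with DMSO was 6.681%, and 6.563% with TPM. Over all genes, the number called ranged over alternatives from 1992 to 8156 in sh4, 5174 to 10652 in shAMB, 6 to 57 in EV and 3970 to 8365 in xenografts. The cause of these changes was not tested. Depth limits BIK and BBC3 most.

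With the replicate number as a block, members called in shAMB minus EV fell from 5 to 3 and in xenografts from 3 to 1. Same-numbered libraries deviated together with r from -0.5553 to 0.5217 in culture (12 of 45 pairs over 0.1) and from -0.4695 to 0.3595 in xenografts (1 of 4). In culture 28 of 90 comparisons and in xenografts 2 of 8 correlated best with the own number, so the numbers were not taken as pairs.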
